A study of Mus musculus with 28 samples.

Results

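Acetylation of lysine 27 on histone H3 (H3K27ac) was followed around 10 genes of the actin stress fibre and the vimentin filament, Acta2, Tagln, Tagln2, Tpm1, Tpm4, Myl9, Cnn2, Actn1, Zyx and Vim. The genes were taken as a fixed list, and the peaks counted as theirs were those whose summit lay nearest to, and within 100 kb of, one of their protein-coding start sites on mm9. By that rule 769 of 893719 peaks belonged to the list. When overlapping peaks of all libraries were joined, 63 of 89050 regions had a member as the gene nearest to most of their peaks. The 11 distal peaks of Cnn2 fell in regions assigned to other genes, and so outside the 63. The measurements were made in NMuMG/E9, a subclone of the NMuMG mouse mammary epithelial line, with 3 ChIP-seq libraries for each of 5 conditions. Cells were untreated (0h) or given TGF-β at 2 ng/ml for 4h or 24h with the solvent DMSO, or received the inhibitor UO126 at 25 µM 30 min before TGF-β and were collected at 4h (ERKi 4h) or 24h (ERKi 24h). UO126 acts on the kinases directly upstream of ERK, there were no libraries of inhibitor without TGF-β, and all cells came from the same subclone.

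Stress fibres are bundles of actin filaments held together by α-actinin (Actn1), stabilised by tropomyosins (Tpm1, Tpm4) and pulled by myosin, whose regulatory light chain is encoded by Myl9. Acta2 encodes the actin isoform of smooth muscle, transgelins (Tagln, Tagln2) and calponins (Cnn2) bind along actin filaments, zyxin (Zyx) sits at focal adhesions and at strained fibres, and vimentin (Vim) forms the intermediate filaments of mesenchymal cells. Many of these genes are known targets of serum response factor (SRF) with its actin-sensing cofactors, and an epithelial cell that enters epithelial to mesenchymal transition (EMT) under TGF-β is known to build stress fibres and to express vimentin. H3K27ac marks active promoters and enhancers, so a change at a gene's start site and a change at a site far from it can be told apart.

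The reference sequence before 4 start sites and around 3 distal summits is given first. The start sites are those of Tagln and Myl9, which had no called peak, Acta2, which had few, and Cnn2, which had one in every library, and the summits are those of distal regions described below. Each is written 5′ to 3′ on the strand of its gene, from NCBIM37 (mm9). The start site windows are the 250 bases before the first base of the transcript, at chr19:34329827-34330076 for Acta2, chr9:45744142-45744391 for Tagln, chr2:156600906-156601155 for Myl9 and chr10:79451079-79451328 for Cnn2. The summit windows are 200 bases long, at chr6:42291566-42291765 for Zyx, chr12:81330748-81330947 for Actn1 and chr9:66954138-66954337 for Tpm1, and the number after the gene is the distance of the summit from the nearest start site, negative when upstream. Capitals mark matches on either strand to the CArG box (CC, 6 bases that are A or T, then GG), to the same box with 1 G or C among the 6 inner bases, and to the short motifs TGANTCA (AP-1), GGAATG (TEAD), CCGGAA (ETS), TGTGGTT (RUNX) and GTCTG (SMAD).
Acta2 start site: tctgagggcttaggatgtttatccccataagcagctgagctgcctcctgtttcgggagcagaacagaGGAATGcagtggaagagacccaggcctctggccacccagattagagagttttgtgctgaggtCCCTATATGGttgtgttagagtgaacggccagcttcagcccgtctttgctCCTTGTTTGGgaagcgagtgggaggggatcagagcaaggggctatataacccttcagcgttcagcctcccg
Tagln start site: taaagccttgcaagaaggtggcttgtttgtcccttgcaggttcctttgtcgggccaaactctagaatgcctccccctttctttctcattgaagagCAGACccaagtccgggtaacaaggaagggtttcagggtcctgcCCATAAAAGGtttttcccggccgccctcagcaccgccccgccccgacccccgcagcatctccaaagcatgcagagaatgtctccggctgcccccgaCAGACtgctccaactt
Myl9 start site: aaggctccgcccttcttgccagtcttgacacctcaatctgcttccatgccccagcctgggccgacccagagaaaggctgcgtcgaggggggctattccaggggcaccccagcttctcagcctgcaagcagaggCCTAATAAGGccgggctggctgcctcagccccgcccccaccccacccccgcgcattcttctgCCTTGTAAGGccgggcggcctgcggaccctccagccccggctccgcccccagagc
Cnn2 start site: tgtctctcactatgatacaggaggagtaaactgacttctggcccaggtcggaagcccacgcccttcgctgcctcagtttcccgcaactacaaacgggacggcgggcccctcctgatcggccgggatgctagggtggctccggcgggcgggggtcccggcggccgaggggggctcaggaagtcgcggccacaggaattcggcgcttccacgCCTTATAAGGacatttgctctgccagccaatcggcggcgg
Zyx -8161: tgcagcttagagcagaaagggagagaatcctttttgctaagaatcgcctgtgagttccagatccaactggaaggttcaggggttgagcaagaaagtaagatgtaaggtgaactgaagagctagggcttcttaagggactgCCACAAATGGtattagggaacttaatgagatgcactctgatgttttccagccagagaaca
Actn1 +30231: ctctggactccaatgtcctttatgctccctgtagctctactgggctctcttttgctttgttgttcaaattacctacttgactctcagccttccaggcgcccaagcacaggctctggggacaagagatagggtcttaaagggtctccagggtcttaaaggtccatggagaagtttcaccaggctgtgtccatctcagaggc
Tpm1 -57024: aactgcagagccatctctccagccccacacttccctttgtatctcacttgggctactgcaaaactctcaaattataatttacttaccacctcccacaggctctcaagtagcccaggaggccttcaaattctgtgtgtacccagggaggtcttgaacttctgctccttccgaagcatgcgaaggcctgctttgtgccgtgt

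An intact CArG box, the sequence bound by SRF, stood before the start sites of Tagln, Myl9 and Cnn2, with its last base 103, 108 and 31 bases from the start. The Acta2 window held no intact box but held 2 boxes with 1 G or C inside, ending 112 and 62 bases before the start, and 1 TEAD match. Over all 32 start sites of the members, whose windows partly overlap, 4 windows in 3 of the 10 genes held an intact box, against 1.20% of 45975 protein-coding start sites. The box with 1 G or C inside was added after the sequences had been read. It was found in 5 of the 32 member windows, in 4 genes, against 6.94% of all start site windows. In summit windows it was found in 6.02% of 89050, among them the window of Zyx −8161. The TEAD pattern stood in 7 of the 32 member windows, against 11.1% of all start site windows, and the SMAD pattern in 9, against 41.4%. The Actn1 and Tpm1 summit windows held none of the 7 patterns, and these matches are descriptions of the letters, not evidence of a bound factor. The ETS and TEAD patterns share the letters GGAA, and no match overlapped another in the printed windows.

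Between 50445 and 69180 peaks were called per library, and the libraries of replicate 2 had the narrowest peaks (median width 423 to 453 bp, against 478 to 647 bp in the others). A level below is the number of fragments stacked at the highest summit of a region in a library, divided by a factor for that library, and is called the scaled pileup. A library in which no peak was called has no level, which is not a level of 0: the lowest pileup of any peak was 7 to 11 fragments, and inside a broadly acetylated stretch a peak had to stand above its own surroundings. Of the epithelial markers checked, Cdh1, Krt8 and Krt18 had a promoter peak in all 15 libraries, and Epcam, Cldn7, Esrp1 and Grhl2 had none nearest to their start sites in any. None of the 3 endothelial and 3 haematopoietic markers had one, of 5 fibroblast markers Pdgfra had one in 3 libraries and Pdgfrb in 1, and of 4 smooth muscle markers Smtn alone had one, in all 15.

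Peaks were found at 8 of the 10 genes. Tagln and Myl9 had none in any of the 15 libraries. For Tagln (chr9:45737711-45744141) the closest upstream summit lay 10521 to 19052 bp away, depending on the library, and belonged to Sidt2, and the closest downstream summit lay 29309 to 29393 bp away at Pcsk7 or Rnf214. For Myl9 (chr2:156601156-156607394) the closest summits lay at least 32866 bp upstream, at Dlgap4, and at least 34393 bp downstream, at Tgif2. The other members were very uneven: Tpm1 had 27 regions and Actn1 17, while Tpm4 had 5, Acta2 4, Tagln2, Vim and Zyx 3 each and Cnn2 1. Of the 63 regions 31 had their summit in an intron and 24 between genes, and 14 were promoter regions, with at least 1 summit within 1000 bp of a start site. A peak was present in every library in 24 regions, 11 of them at promoters, and in a single library in 8.

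**Figure D1:**
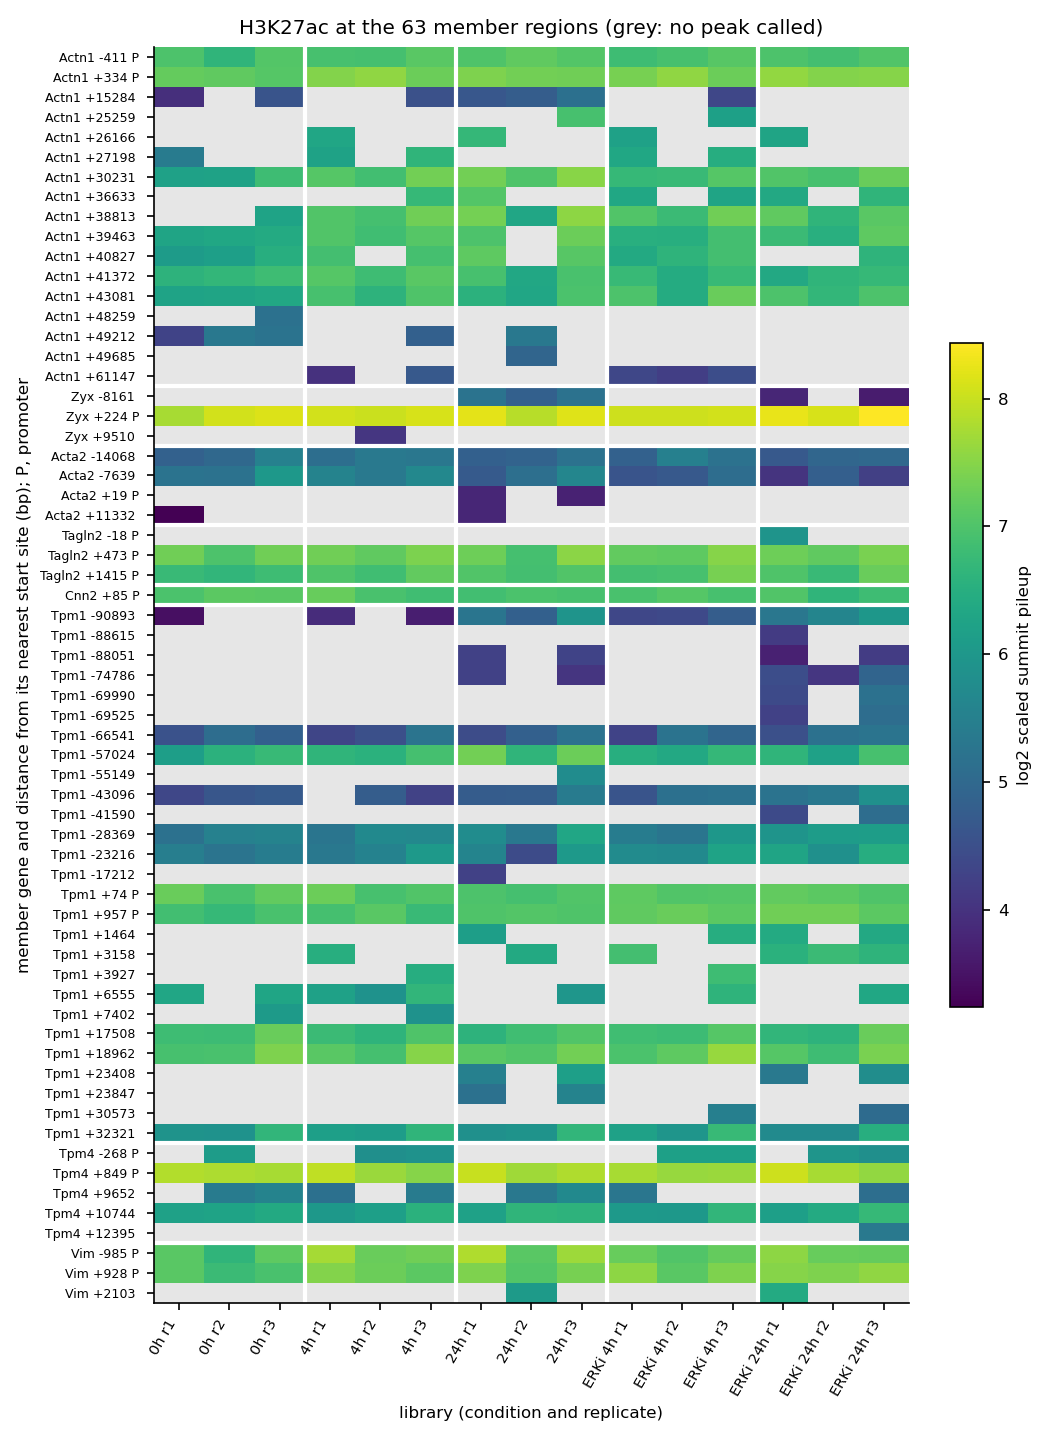
Heat map of the 63 regions (rows, by gene and distance in bp from the nearest start site, P for promoter) in 15 libraries (columns, r1 to r3 the replicates), with colour for the log2 scaled pileup and grey where no peak was called. For 7 genes at least 1 promoter row is filled across all libraries, and Tpm4 −268 and Tagln2 −18 are promoter rows that are not. Zyx −8161 is called in all 24h libraries and in 2 ERKi 24h libraries. More upstream Tpm1 rows are filled in replicates 1 and 3 of 24h and ERKi 24h than in replicate 2 (6 and 7 rows).

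At the promoters, 7 members had a peak in every library, also before any TGF-β was given. At 0h the mean scaled pileup of the Zyx promoter was 257, above 97.1% of the 11862 promoter regions that had a peak in every library, and that of the Tpm4 promoter was 222 (above 94.1%). The others lay closer to the median promoter, which stood at 109: Tagln2 had 148, Actn1 142, Tpm1 141, Cnn2 135 and Vim 127 (above 61.1%). Over all 15 libraries the mean was 275 for Zyx and 156 for Vim, with a median promoter of 104. The Zyx promoter (chr6:42298676-42301435) had levels of 218, 269 and 285 at 0h and 301, 236 and 292 at 24h, so these conditions overlapped. The actin-binding Cnn2, whose only region spans its start site (chr10:79450709-79451876), had 125, 141 and 138 at 0h against 117, 126 and 122 at 24h. Tagln2 at +473 (chr1:174430305-174431167) had 158, 128 and 158 at 0h against 157, 120 and 185 at 24h. The SD of the log2 level over all 15 libraries was between 0.12 (Tpm1 at +74) and 0.30 (Vim −985), against a median of 0.25 over all such promoter regions.

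Acta2 was the exception among the 8 genes. Its promoter region (chr19:34329672-34330080, summit 19 bp downstream of the start, in the 5′ UTR) was called only in 24h replicate 1, at 13.9, and in 24h replicate 3, at 13.4. It was not called in 24h replicate 2 or in any other condition. Both values lie near the lowest pileup at which peaks were called, and the region, lacking a peak in 13 libraries, was not tested.

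**Figure D2:**
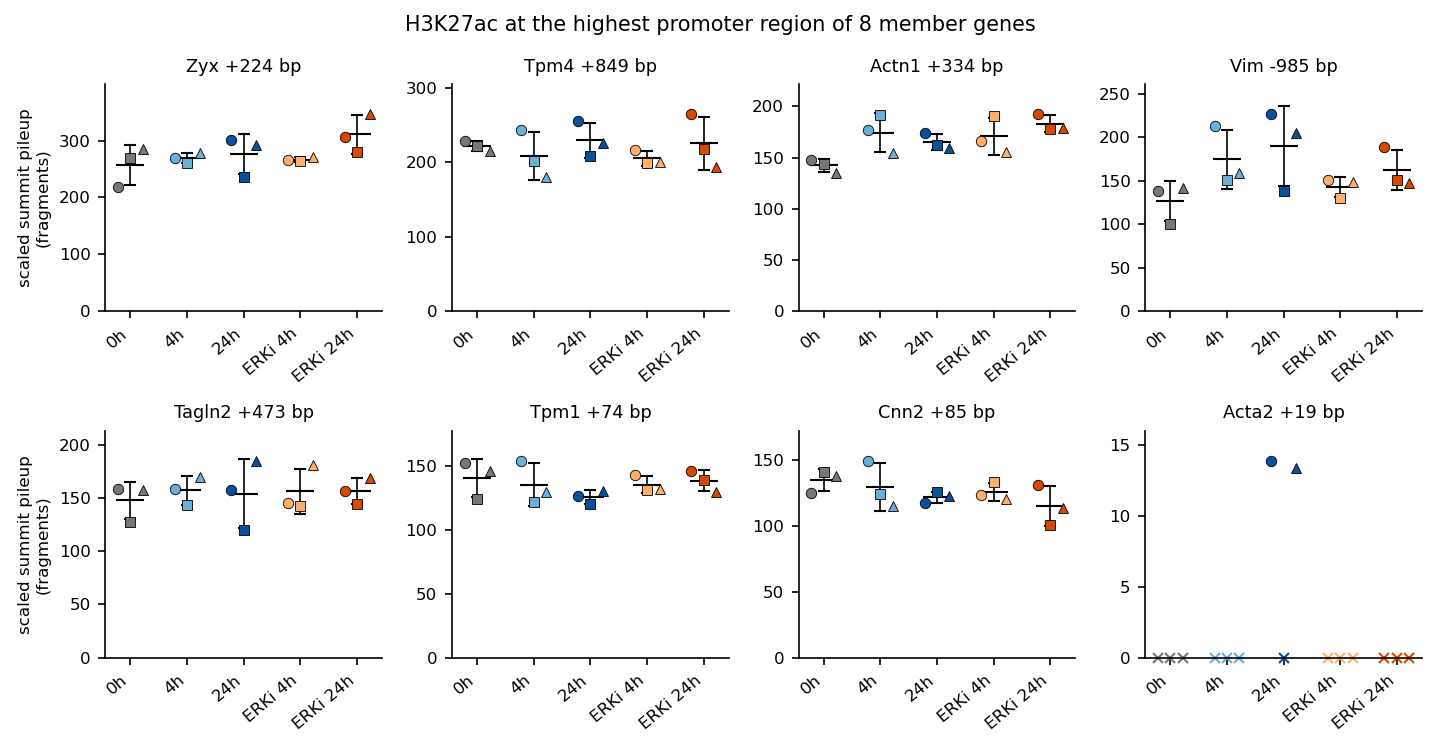
Scaled pileup (fragments, from 0) at the highest promoter region of each of 8 genes in the 5 conditions, with circles, squares and triangles for replicates 1, 2 and 3 and bars for the mean ± SD where all 3 had a peak. A cross on the axis is a library with no peak called: in the regions drawn 0h and 24h overlap at Zyx, Tpm4, Vim, Tagln2, Tpm1 and Cnn2 and not at Actn1 +334, and Acta2 has a peak in 2 of 15 libraries. At Tagln2 +1415 and Tpm1 +957, which are not drawn, 0h and 24h do not overlap either. The share of all promoter regions without overlap is not given.

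The first comparison asked what 24h of TGF-β did to the 24 regions with a peak in every library. With limma over all 26934 such regions, 1 member region changed (4.17%), against 17.3% of all regions, and it rose. In the fit with the replicate number as a block, since same-numbered libraries deviated together, 4 of the 24 changed, all upwards, against 34.8% of all regions. The median log2 change of the 24 regions was 0.07, that of all tested regions −0.03, and the median absolute change was 0.17 for the members against 0.24. The promoter regions lay between −0.16 (Tpm1 +74) and 0.57 (Vim −985), and the distal ones between −0.32 (Acta2 −7639) and 0.85 (Actn1 +30231).

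The region that changed in both fits lies in an intron of Actn1, 30231 bp downstream of the start (chr12:81329151-81332033). Its levels were 74.3, 75.6 and 114 in untreated cells, 135, 117 and 162 after 4h and 161, 128 and 184 by 24h. Every 24h library stood above every 0h library, and the mean rose from 87.9 ± 22.6 to 157 ± 28.2 (SD, n = 3 each). The log2 change was 0.85 (SE 0.21, adjusted p = 0.0086), and 0.74 with an adjusted p of 0.237 when libraries were scaled by their lowest background. The local background that the peak caller took around the summit was higher as well, going from 22.9 ± 2.96 to 61.3 ± 14.8 on the same scale, and the 3 values at 24h (44.6 to 72.5) did not overlap those at 0h (20.2 to 26.1). The fold enrichment over that background was therefore lower at 24h (2.58 ± 0.22) than at 0h (3.68 ± 0.51), with a log2 change of −0.51 and an adjusted p of 0.033, so that the direction at this region depends on whether the height of the summit or its height over the surroundings is read. The sources used here do not state whether that background was taken from the ChIP library itself or from an input, and this was not tested. The 3 input samples carry no condition in their titles. From 0h to 24h the scaled background at the Cnn2 promoter was 30.0 ± 0.81 and 29.4 ± 1.32. At Vim −985 it was 29.0 ± 4.95 and 44.0 ± 7.44. The region at +30231 is 1 of 10 that lie between 25259 and 43081 bp inside the gene. At +38813, chosen after its values were seen, a peak was called in 1 of 3 libraries at 0h and in all 12 libraries with TGF-β.

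**Figure D3:**
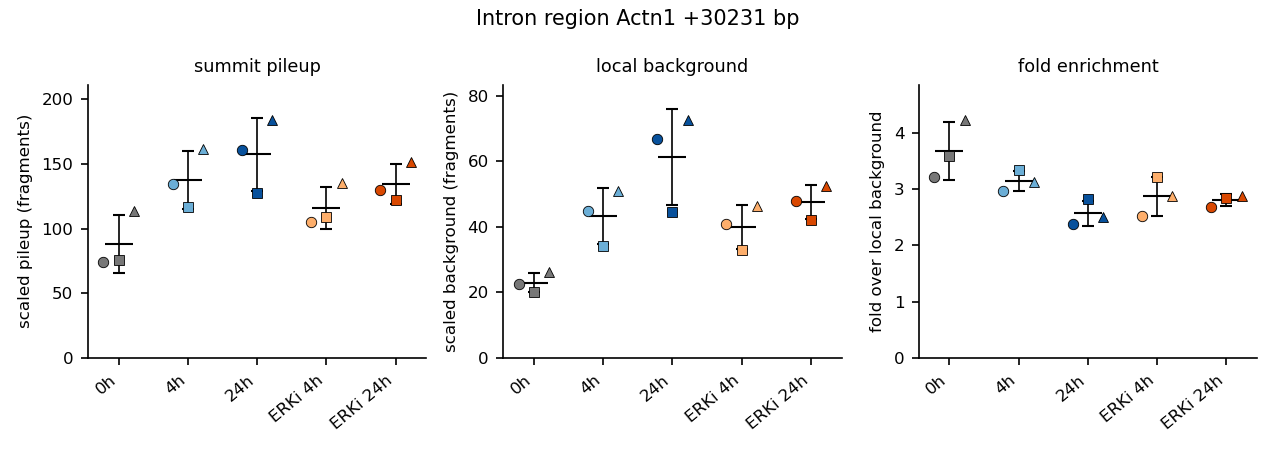
Scaled summit pileup, scaled local background (both in fragments) and fold enrichment at Actn1 +30231 by condition, with circles, squares and triangles for replicates 1 to 3 and bars for the mean ± SD. Pileup and background are higher at 24h than at 0h in every library, and the fold over background is lower.

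Vim had 2 promoter regions with a peak in every library, which lie 985 bp upstream (chr2:13493856-13495878) and 928 bp downstream, in coding sequence (chr2:13495930-13497185). Upstream, the levels were 138, 100 and 141 in untreated cells, 213, 151 and 159 after 4h and 227, 138 and 205 by 24h. Replicate 2 of 24h lay inside the range of 0h, and so the conditions overlapped. The log2 change between 0h and 24h was 0.57 (SE 0.21) and did not pass (adjusted p = 0.083), but it passed with the replicate block (adjusted p = 0.0032) and without 24h replicate 2 (0.79, adjusted p = 0.016). Downstream, 138, 110 and 124 at 0h compared with 173, 132 and 164 at 24h (0.33, adjusted p = 0.23, with the block 0.039). The fold enrichment at the downstream region went the other way, from 4.15 ± 0.16 at 0h to 3.43 ± 0.11 at 24h. These fold values did not overlap (3.99 to 4.31 against 3.31 to 3.50). Its local background was 29.3 ± 4.80 at 0h and 45.0 ± 7.32 at 24h. Local background at the upstream region was 29.0 ± 4.95 at 0h and 44.0 ± 7.44 at 24h, and the log2 change of the fold enrichment there was −0.02 (adjusted p = 0.98).

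Among the tropomyosins, Tpm1 −57024 (chr9:66952639-66955058, between genes) had 71.3, 95.7 and 107 at 0h and 161, 99.3 and 154 at 24h. Replicates 1 and 3 of 24h were above every 0h library and replicate 2 was not. The log2 change of 0.58 (SE 0.23) had an adjusted p of 0.099, with the block of 0.0092 and without 24h replicate 2 of 0.022 (change 0.81), and by fold enrichment it was −0.29 (adjusted p = 0.20), the local background having gone from 12.3 ± 2.69 to 23.5 ± 6.03. The regions with the highest mean level downstream, Tpm1 +18962 in an intron (chr9:66872091-66872862) and Tpm4 +10744 (chr8:74669091-74671466), passed in neither fit. Tpm4 +10744 had 74.3, 76.8 and 84.4 at 0h and 74.7, 99.3 and 96.6 at 24h.

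**Figure D4:**
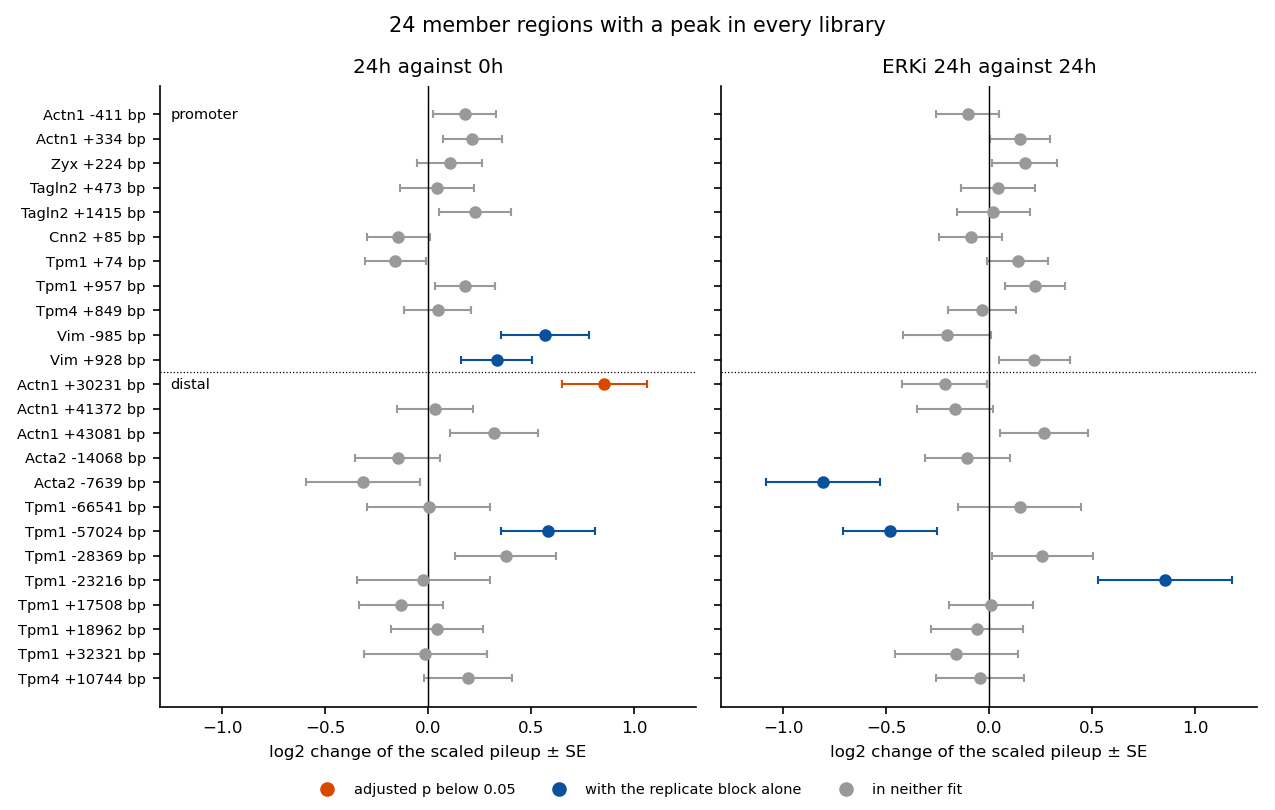
Log2 change ± SE of the scaled pileup at the 24 regions with a peak in every library, for 24h against 0h and ERKi 24h against 24h, orange for an adjusted p below 0.05, blue for one that passes only with the replicate block, grey for neither. Actn1 +30231 is the orange point, and in the right panel Acta2 −7639 and Tpm1 −57024 lie below 0 and Tpm1 −23216 above.

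After 4h of TGF-β none of the 24 regions passed limma's test, where 3.64% of all regions did. An unadjusted p below 0.05 was found at 3 of the 24, against 13.7% of all regions. With the replicate block 3 regions rose (15.5% of all regions changed): Actn1 +30231 (log2 change 0.66, adjusted p = 0.106 without and 0.00093 with the block), Actn1 +43081 (0.54, 0.248 and 0.0114) and Vim −985 (0.46, 0.352 and 0.0271). At Actn1 +43081 (chr12:81317411-81318357) every 4h library (122, 96.6 and 128) lay above every 0h library (76.4, 77.9 and 82.2). Without 0h replicate 3 the change at Actn1 +30231 was 0.87 and passed without the block (adjusted p = 0.034). By fold enrichment the change at Actn1 +30231 was −0.22 and that at Actn1 +43081 −0.13. The 4h and 24h comparisons share the 0h libraries.

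The inhibitor was compared at the same time of TGF-β. At 24h, none of the 24 regions passed, against 7.5% of all regions. An unadjusted p below 0.05 was found at 2 of the 24, against 20.2% of all regions. With the replicate block 3 regions differed, 2 lower and 1 higher with ERKi, against 25.7% of all regions. The median log2 difference of the members was −0.01. These differences share the 24h libraries with the 24h against 0h comparison.

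Acta2 −7639 (chr19:34336613-34337852, between genes) was 1 of the 2 that were lower with the block. It had 37.1, 36.6 and 64.7 in untreated cells, 47.2, 40.5 and 50.5 after 4h and 26.1, 35.4 and 49.3 by 24h of TGF-β. With ERKi it had 24.3, 25.9 and 34.5 after 4h and 16.2, 28.3 and 18.6 by 24h. Each ERKi library at 24h was below its same-numbered 24h library, although 28.3 in replicate 2 lay within the range of the 24h libraries. The log2 difference of −0.81 (SE 0.28) had an adjusted p of 0.096, and of 0.0093 with the block. At 4h the 3 ERKi levels were all below the 3 without it, with a difference of −0.72 and an adjusted p of 0.63 (with the block 0.0705). The region farther upstream, Acta2 −14068 (chr19:34343361-34345021), had 28.7, 29.7 and 37.0 at 24h and 25.7, 30.9 and 31.8 at ERKi 24h and passed in neither fit.

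Tpm1 held regions that went in opposite directions. At −57024, 161, 99.3 and 154 at 24h stood against 99.9, 74.7 and 121 with ERKi, lower in every same-numbered pair but overlapping between the conditions (−0.48, adjusted p = 0.252, with the block 0.036). The fold enrichment there was 5.69 ± 0.54 at 24h and 5.67 ± 0.42 with ERKi. Its local background was 23.5 ± 6.03 and 16.6 ± 4.15. At −23216 (chr9:66918735-66920850), chosen after its values were seen, 47.8, 21.7 and 65.8 at 24h stood against 77.8, 57.9 and 89.1 with ERKi, higher in every pair (0.85, adjusted p = 0.134, with the block 0.0084). Without 24h replicate 3 the second difference was 1.20 (adjusted p = 0.034). The Actn1 intron region at +30231, at 130, 122 and 152 with ERKi, passed the test against 24h in neither fit.

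At 4h of TGF-β, ERKi changed none of the 24 regions in either fit, where 0.212% of all regions changed without and 3.59% with the block. An unadjusted p below 0.05 was found at 1 of the 24 without and 3 with the block. Over all regions the shares were 5.85% and 16.5%. None of the 24 regions passed the test of whether the ERKi effect at 24h differed from that at 4h. Over all regions 0% passed without and 3.34% with the block. None of the 24 had an unadjusted p below 0.05 in either fit, against 5.92% of all regions without and 18.2% with the block.

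**Figure D5:**
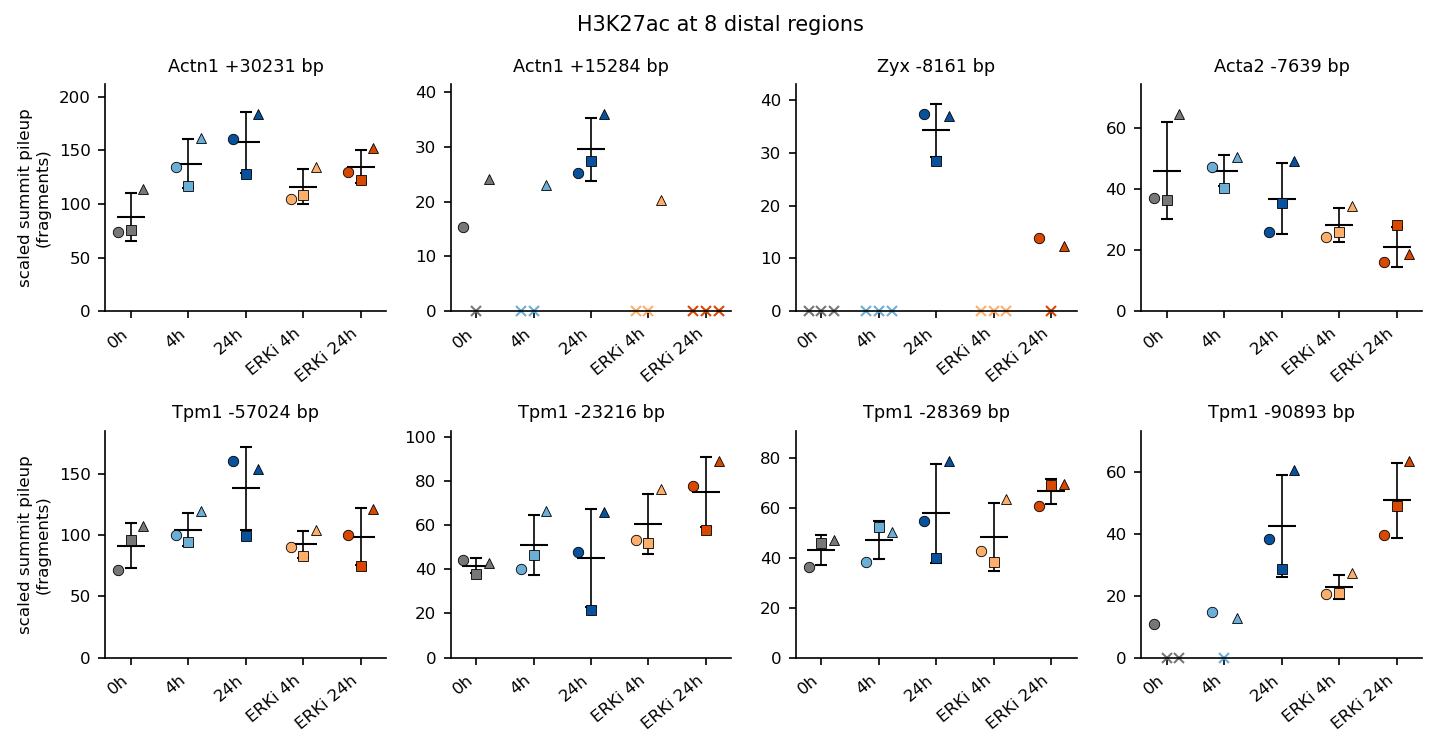
Scaled pileup (fragments, from 0) at 8 distal regions in the 5 conditions, with circles, squares and triangles for replicates 1, 2 and 3, bars for the mean ± SD where all 3 had a peak, and a cross on the axis where no peak was called. Zyx −8161 has peaks at 24h and in 2 ERKi 24h libraries, Acta2 −7639 is lowest at ERKi 24h, and Tpm1 −90893 is high at both 24h and ERKi 24h.

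Against untreated cells, ERKi 24h changed 3 of the 24 regions, against 19.8% of all. Acta2 −7639 fell by 1.12 on the log2 scale (SE 0.28, adjusted p = 0.0092), all 3 ERKi libraries (16.2 to 28.3) lying below the 3 untreated ones (36.6 to 64.7). Without ERKi 24h replicate 1 it was −0.95 with an adjusted p of 0.051. Actn1 +30231 rose by 0.64 (adjusted p = 0.040) and Vim +928 by 0.55 (adjusted p = 0.033), the latter from 124 ± 14.2 to 181 ± 9.13. Actn1 +30231 lost that call without 0h replicate 1 or 2, 4h replicate 1 or ERKi 24h replicate 1 or 3 (adjusted p up to 0.144), and Vim +928 without 0h replicate 2 or 3 or any ERKi 24h replicate (adjusted p up to 0.127). By fold enrichment the changes were −0.38 and 0.10, neither past the threshold. With the block 8 regions rose and 1 fell (40.7% of all regions changed), the 6 further ones being Actn1 +43081, Actn1 +334, Tpm1 +957, Tpm1 −23216, Tpm1 −28369 and Vim −985. ERKi 4h against 0h gave no call among the 24 (5.26% of all regions) and 4 at an unadjusted p below 0.05 (17.5% of all regions). With the block it gave 3 higher and 1 lower, against 21.6%: Actn1 +43081, Actn1 +30231 and Vim +928 rose, and Acta2 −7639 was lower by 0.67 (adjusted p = 0.029).

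Regions without a peak in every library were read by their calls. Of the 63, 1 was called in all 24h libraries and in no 0h library, where 4.91% of all regions were, and none was called the other way round, where 2.07% were. That region is Zyx −8161 (chr6:42290950-42292001, between genes). It reached 37.4, 28.5 and 37.0 at 24h, was not called at 0h, 4h or ERKi 4h, and with ERKi at 24h was called in replicates 1 and 3 at 14.0 and 12.4. Every ERKi level there was below every 24h level, and ERKi 24h replicate 2 gave none. When regions with a peak in at least 3 libraries were fitted and each missing peak was set to the lowest pileup of its library, the log2 difference between ERKi 24h and 24h was −1.38 (SE 0.28, limma adjusted p = 0.012), a size that rests on that floor, and 6.74% of the 60506 regions fitted so changed. The surroundings were low, with a scaled local background of 3.97 ± 0.51 at 24h.

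Between 24h and ERKi 24h, 1 of the 63 regions was called in all 24h and no ERKi 24h library (1.21% of all regions), and none in all ERKi 24h and no 24h library (1.49%). It is the Actn1 intron region at +15284 (chr12:81345490-81346339), with 25.2, 27.4 and 36.0 at 24h. It was also called at 0h in replicates 1 and 3 (15.3 and 24.1), at 4h in replicate 3 (23.0) and at ERKi 4h in replicate 3 (20.3). Without 24h replicate 2, 6 regions rather than 1 were called in all 24h and no 0h libraries, and 3 rather than 1 in all 24h and no ERKi 24h libraries. The share over all regions without that library is not given here.

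Tpm1 varied most along its upstream side. All 14 regions upstream of its first start site lay between genes, from −17212 to −90893, and the number of them with a peak was 5 or 6 in each 0h, 4h and ERKi 4h library, 9, 6 and 9 at 24h, and 12, 7 and 11 at ERKi 24h. Replicate 2 was the lowest at both 24h conditions. The farthest region, Tpm1 −90893 (chr9:66987844-66989069), named after its values were seen, had a peak of 10.9 in 1 library at 0h and of 14.9 and 12.9 in 2 at 4h. Its levels reached 38.2, 28.5 and 60.6 by 24h. With ERKi they were 20.4, 21.0 and 27.4 after 4h and 39.7, 48.9 and 63.6 by 24h. Both 24h conditions lay above every library at 0h and 4h in which a peak was called, and they overlapped with each other. Tpm1 −28369 (chr9:66924844-66926347) had 36.4, 46.1 and 47.1 in untreated cells, 54.7, 39.9 and 79.1 by 24h and 60.9, 69.5 and 69.8 with ERKi. Of the distal Tpm1 regions downstream of a start site, those with a peak in every library passed the test in no comparison. The one at +17508 had 125 ± 22.7 at 0h, 114 ± 17.0 at 24h and 116 ± 30.4 at ERKi 24h. With missing peaks set to the lowest pileup, limma called Tpm1 +23408 higher than 0h at 24h (log2 change 1.99, adjusted p = 0.037) and at ERKi 24h (1.86, adjusted p = 0.048). Tpm1 +3158 was higher at ERKi 24h (3.58, adjusted p = 0.033), and +1464 and +6555 passed in no comparison. These sizes rest on that floor.

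Counted as peaks, the members had 32 ± 2.65 distal peaks per library at 0h (SD, n = 3), 38.7 ± 6.43 at 4h, 42.3 ± 3.21 at 24h, 38.3 ± 3.79 at ERKi 4h and 41.3 ± 4.62 at ERKi 24h. All 24h libraries (40 to 46) exceeded all 0h libraries (30 to 35), at an exact two-sided permutation p of 0.1, the smallest that 3 libraries against 3 allow. The total number of peaks was also higher, at 56759, 61890 and 68050 in the 24h libraries against 52221, 53603 and 59658 in those of 0h, and its part in the member counts was not tested. The exact p was 0.2 for 4h against 0h, 0.8 for ERKi 24h against 24h and 1 for ERKi 4h against 4h. By gene, Tpm1 alone had numbers at 24h (21, 17 and 23) that did not overlap those at 0h (13, 15 and 14), which 19.1% of 12198 genes with a distal peak showed. Acta2 alone had fewer with ERKi at 24h (2, 2 and 2 against 3, 4 and 3), and 8.03% of genes did not overlap in that comparison. This is a number of peaks, and a region can hold more than 1 peak in a library. Acta2 −7639 and −14068 each had a peak in all 15 libraries, with 17 and 22 peaks in total. No member separated at 4h against 0h or ERKi 4h against 4h, where 5.94% and 2.43% of genes did.

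Of the 11 member promoter regions with a peak in every library, Vim −985 had the largest log2 difference between 0h and 24h, which did not pass the test without the block. The promoters with the most similar levels to it over the 15 libraries were those of Col18a1 (Pearson r 0.88), Jak2 (0.87), 2310014H01Rik (0.86), Lad1 (0.85) and Cdk2ap1 (0.84), out of 11862. The points share libraries and scaling factors, so these are descriptions.

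Other genes of the cytoskeleton were counted from lists of 66 annotated genes, 59 of which had tested regions. Of their 248 regions 26.2% changed between 0h and 24h, against 17.3% of all regions, 52 upwards and 13 downwards, with a median log2 change of 0.08. The actin and actin-binding list gave 16 higher and 2 lower of 59 regions, focal adhesion and LIM proteins 13 and 4 of 82, intermediate filament and lamina genes 6 and 1 of 28, myosin genes 4 and 2 of 28, and SRF and MRTF 3 and 2 of 17. The largest changes were at a pair of regions of Lmnb1 (lamin B1), with log2 changes of 2.25 and 2.15, and at Limk2, which encodes a kinase that inactivates cofilin, with 1.95. Between 24h and ERKi 24h 8.87% changed, against 7.5% of all, 10 upwards and 12 downwards. The largest were 3 distal regions of Mkl2, which encodes an SRF cofactor of the MRTF family, all higher with ERKi, by 2.12, 1.75 and 1.36 on the log2 scale. At the region 65523 bp upstream of Mkl2 the level was 23.5 ± 5.58 at 24h and 104 ± 32.8 with ERKi (adjusted p = 0.00055).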

How the data were processed

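Peak lists of 15 H3K27ac libraries (antibody ab4729) were used. The 10 RNA-seq and 3 input samples were not used here. The authors mapped reads with bowtie (mm9) and ran MACS2 per library with default settings. In the deposited lists the fold enrichment is the ratio of summit pileup plus 1 to local background plus 1, −log10 p and −log10 q values are the authors' own, and the deposited score is a rescaled −log10 q. Depth is unknown from the files, and peak numbers are given in its place.

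The whole-number pileup was solved from the fold and the −log10 p (misfit above 0.005 at 25 peaks). Peaks overlapping by at least 1 bp were joined across libraries into 89050 regions. Pileups of the 26934 regions with a peak in every library were scaled by the median of ratios, taken as log2 and fitted with limma 3.58.1 (R 4.3.3) as 5 condition means, with Benjamini-Hochberg adjustment over all of them and a threshold of 0.05. A region belonged to the gene nearest to most of its summits among protein-coding start sites of GENCODE vM1, and was a promoter region when a summit lay within 1000 bp. Distal peak numbers were compared with exact permutation tests.

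Replicate numbers came from the sample titles. In 30 of 30 pairs of same-numbered libraries the deviations from the condition means were positively correlated (0.336 to 0.790, mean 0.581), and 15 of 15 libraries correlated best with their own number, so values with a replicate block are given where they change a call. Nothing states that replicates are separate cultures, so p-values measure the spread between these libraries, which may be technical. The library number in the peak names of ERKi 4h replicate 1 is out of the order of the others, which was not tested further.

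Members and gene lists were chosen with earlier results of these data known, and the counts of a further list are not reported here. Named regions were, per member, the promoter and the distal region with the highest mean level, distal regions with the 3 largest changes past the threshold, and regions called in all libraries of one condition and none of the other; for other genes the 3 largest changes per comparison, and for Vim the 5 most similar promoters. All other regions named, and those called only with the block, were chosen after their values were seen. Sequences are from NCBIM37, on which all peaks lay within the 21 chromosomes' lengths. Alternatives covered fold enrichment, other scalings, peak filters, joining rules, start site sets, distances, promoter definitions, the block and each library left out.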

Additional observations from a re-analysis of the deposited data

How the results depend on the processing

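Most counts rested on few regions near the threshold. With the replicate block, higher calls among the 24 regions went from 0 to 3 (4h against 0h), 1 to 4 (24h against 0h), 0 to 1 (ERKi 24h against 24h), 0 to 3 (ERKi 4h against 0h) and 2 to 8 (ERKi 24h against 0h), and lower calls from 0 to 2 (ERKi 24h against 24h) and 0 to 1 (ERKi 4h against 0h). The block changed no other call at the members. When regions with a peak in at least 3 libraries entered, 44 of the members, with missing peaks set to the lowest pileup, higher calls were 1, 6, 2 and 5 for 4h, 24h, ERKi 4h and ERKi 24h against 0h, and lower calls 2 each for ERKi 24h against 24h and against 0h. A missing peak inside a broad domain is poorly stood for by that floor. In that setting 6.74% of the 60506 regions fitted changed at ERKi 24h against 24h. For the other counts with alternatives or a library left out, no share over all regions is given here. Those counts therefore cannot tell whether a change was particular to the members. With fold enrichment in place of the pileup, higher calls were 0 and lower calls 2 at 24h against 0h, and higher calls 0 at ERKi 24h against 0h. That setting turned 7 of the named changes that were followed through the alternatives, to −0.51 (24h), −0.22 (4h) and −0.38 (ERKi 24h) at Actn1 +30231 against 0h, −0.13 at Actn1 +43081 (4h), −0.046 at Actn1 +334 (ERKi 24h), −0.29 at Tpm1 −57024 (24h) and −0.016 at Vim −985 (24h). Changes that were not followed could turn as well. Mean fold was below that of 0h at Vim +928 at 24h (3.43 against 4.15) and at Actn1 +30231 at ERKi 4h (2.88 against 3.68). At Vim −985 it was 4.02 at ERKi 24h against 4.25.

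Scaling by the lowest background in each list left 0 higher calls at 24h and 0 at ERKi 24h against 0h. Joining peaks within 1000 bp or using 500 bp summit windows left 1 higher call at ERKi 24h against 0h, the windows gave 1 higher call at ERKi 24h against 24h, and quantile normalization 1 lower at ERKi 4h against 0h. With peaks of −log10 q of at least 10 the lower call at ERKi 24h against 0h was lost (0), 2 regions were called in all 24h and no 0h library and 1 in the reverse, 1 was called in all ERKi 24h and no 24h library, and the distal peak difference of ERKi 24h against 24h turned to 2. That of ERKi 4h against 4h turned to 0.333 with all transcripts' start sites and to 1 with the HOMER promoter window.

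Leaving out each library in turn gave higher calls of 0 to 1 (4h against 0h), 1 to 4 (24h against 0h), 0 to 1 (ERKi 24h against 24h), 0 to 1 (ERKi 4h against 0h) and 0 to 4 (ERKi 24h against 0h), and 0 to 1 lower calls in the last. Distal peak differences ranged from 8.5 to 11.8 (24h against 0h), 3 to 9 (4h against 0h), −2.33 to 1.67 (ERKi 24h against 24h, main value −1, turning to 0.833 without 24h replicate 3 and 1.67 without ERKi 24h replicate 2) and −2.67 to 3.33 (ERKi 4h against 4h, main value −0.333, turning to 3.33 without 4h replicate 3 and 1.83 without ERKi 4h replicate 2). Regions called in all libraries of one condition and none of the other numbered 1 to 6 (24h, not 0h), 0 to 1 (0h, not 24h), 1 to 3 (24h, not ERKi 24h) and 0 to 3 (ERKi 24h, not 24h). With the replicate block as exact sign flips, the distal peak difference of 24h against 0h (10.3) had p = 0.25, the smallest that 3 pairs allow. Causes of these shifts were not tested. Summit pileups come from called peaks alone, so a change below the calling limit was not detectable.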
